A study of Homo sapiens with 6 samples.

Results

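The H3K27ac landscape of ME-1 cells was compared between DMSO and AI-10-49 from the region lists of the H3K27ac precipitations, which are the only libraries used here. These lists held 67087 regions for DMSO and 66350 for AI-10-49, together 133437 of the 145457 regions listed for the 4 libraries of the series that have a peak list. The members were chosen by antibody alone, and the RUNX1 lists entered none of the comparisons. ME-1 is an established human leukemia line with inv(16), an inversion that joins CBFB to MYH11 and yields the fusion protein CBFβ-SMMHC. AI-10-49 is a small molecule made to block the contact of this fusion protein with RUNX1, a transcription factor of blood cells. Cells of the same line received either DMSO or AI-10-49 at 1 µM for 6 h, and sheared chromatin was precipitated with an antibody against histone H3 acetylated at lysine 27. Each condition had 1 library, so no difference could be set against a spread between replicates and no p-value was computed. Intervals on shares are exact Clopper-Pearson intervals at 95%, and they cover the sampling of regions only.

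H3K27ac is written by the acetyltransferases CBP and p300 and removed by histone deacetylases. It marks nucleosomes that flank active promoters and active enhancers, where the factor-bound stretch itself is often poor in nucleosomes, so a single element can appear as neighbouring summits. Wide acetylated stretches, built of many such elements, are common around genes that define a cell's identity.

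Depth was recovered from the deposited values. The precipitated libraries held 35.7 M (mega) reads (DMSO) and 37.0 M (AI-10-49), and the control library behind each call, whichever input that was, held 34.0 M and 27.6 M. The control for AI-10-49 was 0.812 of that for DMSO in size, and the smaller library sets the depth at which a list was called. The shortest region was 192 bp in DMSO and 210 bp in AI-10-49, taken as the fragment length of each library. Both the depth and the fragment length differ along with the treatment, so their part in any difference below cannot be told apart from that of AI-10-49. Positions are 1-based in hg19. Without an annotation of that build no region was assigned to a gene, the labelled cell type could not be set against its marker genes, and a gene named beside a cytoband is background only.

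Acetylated chromatin covered less sequence in AI-10-49 although nearly as many regions were listed. The DMSO regions covered 68.7 Mb and the AI-10-49 regions 62.4 Mb, a ratio of 0.908, against a ratio of 0.989 for the number of regions. The 51.6 Mb covered in both lists made up 75.2% of the DMSO length and 82.8% of the AI-10-49 length. The difference of 6.32 Mb was divided by where the bases lay. Outer edges of regions that had a partner in the other list gave 3.13 Mb of it (49.5%), being 8.19 Mb in DMSO and 5.06 Mb in AI-10-49. Regions with no partner gave 2.25 Mb (35.7%), from 6.99 Mb in DMSO and 4.73 Mb in AI-10-49. Gaps inside a region of one list between its partners in the other gave 0.935 Mb (14.8%), from 1.86 Mb and 0.930 Mb. Margins of regions with a partner were thus the largest of the 3 parts, and regions with no partner and inner gaps made up the rest.

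Regions are classed by width, each class including its lower bound and not its upper one. Those of middling width were more numerous in AI-10-49, and both the widest and the narrowest classes were smaller. Between 250 and 500 bp the DMSO list held 19852 regions and the AI-10-49 list 23070 (ratio 1.16). For 500 to 1000 bp the numbers were 14261 and 15762 (ratio 1.11). Under 250 bp there were 11388 and 8994 regions (0.790), a class that began at 192 bp in DMSO and at 210 bp in AI-10-49. All 3 classes above 1 kb were smaller in AI-10-49, with 12541 and 11151 regions of 1000 to 2000 bp (0.889), 7961 and 6474 of 2000 to 5000 bp (0.813), and 1084 and 899 of 5000 bp or more (0.829). The classes from 2000 bp up held 45.3% of the covered length in DMSO and 40.5% in AI-10-49. Median width was 551 bp in DMSO (quartiles 297 and 1297) and 522 bp in AI-10-49 (306 and 1110).

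**Figure D1:**
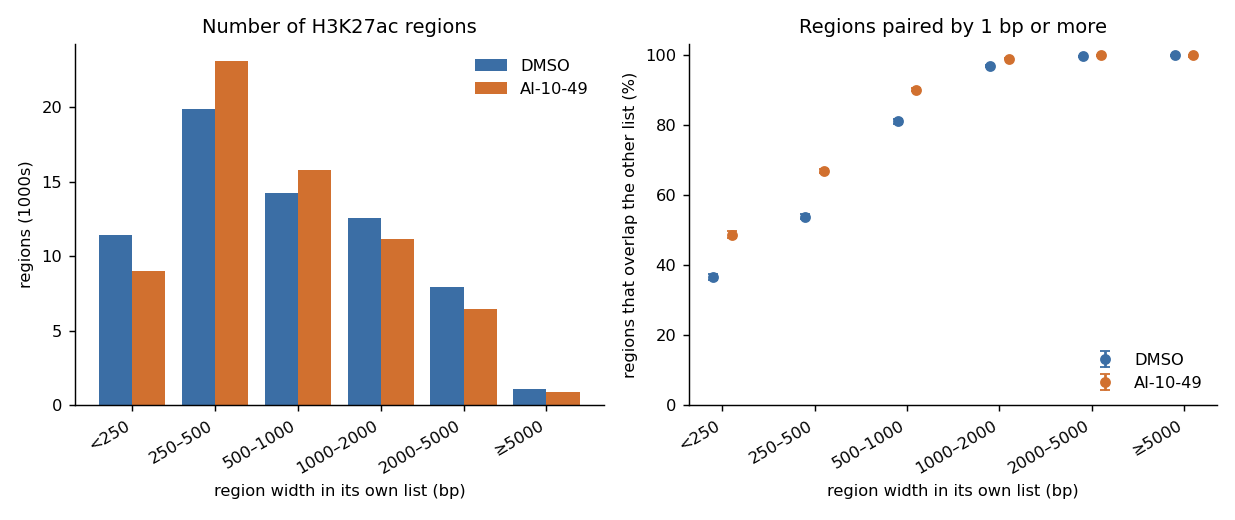
Left, the number of H3K27ac regions (in units of 1000) by width in bp for DMSO and AI-10-49; right, the percentage of regions that overlap the other list by at least 1 bp, with 95% Clopper-Pearson intervals. AI-10-49 has more regions between 250 and 1000 bp and fewer above 1000 bp, and the paired share climbs from 36.7% (DMSO) and 48.8% (AI-10-49) under 250 bp to 100% at 5000 bp or more.

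Overlap with the other condition followed width closely. In all, 19480 of the DMSO regions (29%) had no AI-10-49 counterpart, and 13902 of those in AI-10-49 (21%) had none in DMSO. Under 250 bp 36.7% (35.8 to 37.6) of DMSO regions had a partner, and 48.8% (47.7 to 49.8) of AI-10-49 regions did. The paired share was 53.8% and 66.9% at 250 to 500 bp, and 81.1% and 90.2% at 500 to 1000 bp. It reached 96.9% and 99.0% at 1000 to 2000 bp, and all 1084 DMSO and 899 AI-10-49 regions of 5000 bp or more had a partner. Few wide regions lacked any overlap: among regions of 2000 bp or more, 19 of 9045 in DMSO and 2 of 7373 in AI-10-49 stood alone. Since 1 bp of overlap makes a pair, a wide region is paired more easily, and its partner may cover only part of it. In every class under 5000 bp the AI-10-49 region was the more often paired, as the plot of paired shares by width shows. With regions up to 1 kb apart counted as partners, 83.5% of the DMSO list and 90.0% of the AI-10-49 list were paired.

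Wider classes had higher summits in both lists. The number of sequenced fragments over a summit, per M reads of the library, had a median of 0.476 under 250 bp, 0.897 at 500 to 1000 bp and 6.0 at 5000 bp or more in DMSO. The medians for AI-10-49 were 0.514, 0.865 and 4.22. The medians were close at the narrow end and apart at the wide end, where regions of 2000 to 5000 bp had a median of 4.09 in DMSO and 2.81 in AI-10-49. Heights at the narrow end lay near the lowest listed (0.252 in DMSO and 0.324 in AI-10-49), and each region was classed by its own width. Close medians there thus do not show equal signal.

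Wide DMSO regions were more often met by several AI-10-49 regions than the reverse. A DMSO region that overlapped 2 or more AI-10-49 regions is called broken up here, and an AI-10-49 region that overlapped 2 or more DMSO regions is called merged, as descriptions of the intervals. There were 8834 broken-up regions, 18.6% of the 47607 DMSO regions with a partner, and 5191 merged regions, 9.9% of the 52448 AI-10-49 regions with a partner, a ratio of 1.70 between the counts. Among regions of 5000 bp or more, the broken-up share was 61.7% (58.7 to 64.6) and the merged share 42.0% (38.8 to 45.4). At 2000 to 5000 bp the shares were 40.8% and 23.9%, and at 1000 to 2000 bp 26.9% and 15.0%. The narrowest classes went the other way by a small margin, with 0.580% and 0.867% under 250 bp. The surplus depends on direct overlap: the ratio was 1.03 with regions up to 1 kb apart counted as partners, and 2.93 among regions with at least 1 summit fragment per M reads.

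**Figure D2:**
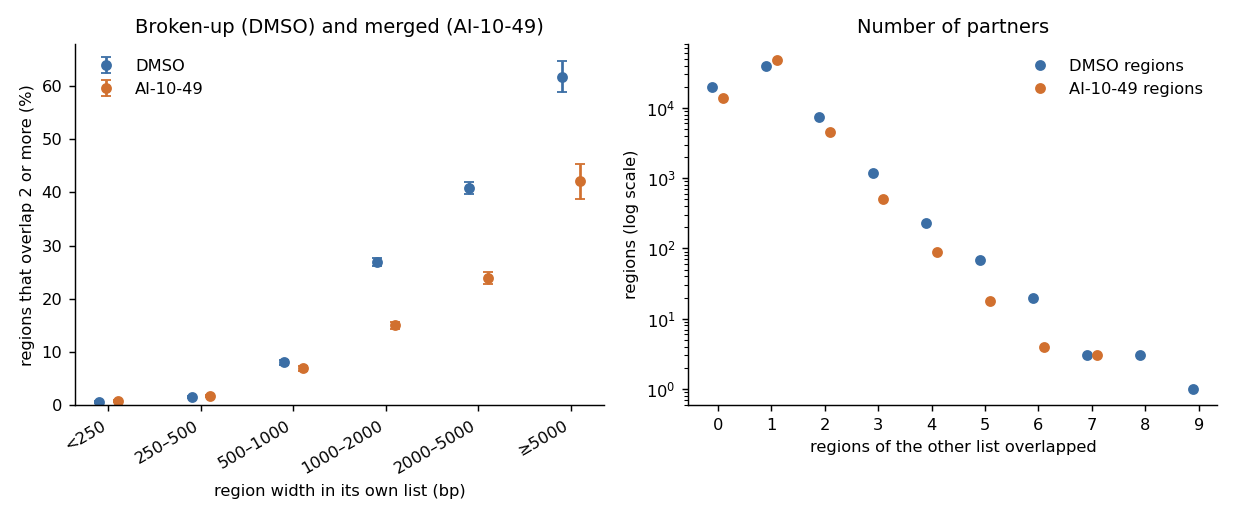
Left, the percentage of regions that overlap 2 or more regions of the other list, by width in bp, with 95% Clopper-Pearson intervals; right, the number of regions (log scale) by how many regions of the other list they overlap. At 5000 bp or more 61.7% of DMSO and 42.0% of AI-10-49 regions overlap several, and the highest number of partners is 9 for a DMSO region and 7 for an AI-10-49 region.

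Every region was placed in a group of regions connected by overlap. In 29671 groups 1 DMSO region met 1 AI-10-49 region. In 6981 groups 1 DMSO region met 2 or more AI-10-49 regions, 15476 in all, and the covered length was 16.7 Mb in DMSO and 14.2 Mb in AI-10-49 (ratio 0.851). The reverse, 2 or more DMSO regions under 1 AI-10-49 region, was found in 3390 groups with 7277 DMSO regions, which covered 6.77 Mb in DMSO and 7.47 Mb in AI-10-49 (ratio 1.10). A further 1606 groups had several regions on both sides and covered 5.79 and 5.76 Mb. Groups of the first kind and of the reverse kind thus differed in opposite directions in covered length, which the grouping itself favours, and the first kind was the more frequent.

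The breaks were short. Between the AI-10-49 pieces of a broken-up region the gap had a median of 126 bp (quartiles 74 and 210), 82.7% of the 10800 gaps were under 250 bp, and 42 were 1000 bp or more. The pieces covered a median of 82.1% of the DMSO region, and the widest piece alone covered 53.3%. The DMSO summit lay inside a piece in 94.4% of cases (93.9 to 94.9). So the summit of the DMSO region was in most cases still called, while short stretches beside it were not. The piece with most fragments had 0.687 of the DMSO summit's fragments per M reads (quartiles 0.540 and 0.890). Merged AI-10-49 regions closed gaps of similar size (median 112 bp), and the highest DMSO region under them had 1.18 times the fragments of the AI-10-49 summit (quartiles 0.895 and 1.53).

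The widest acetylated stretch of either list lay in 12p13.2, the band of ETV6, a transcriptional repressor needed in blood stem cells. In DMSO it ran over 41352 bp at chr12:11888894-11930245, with 225 summit fragments or 6.30 per M reads (5.51 to 7.18, Poisson interval for counting error, as in the sentences that follow). In AI-10-49 it was met by 5 regions, the widest of 31163 bp with 4.27 per M reads, and these covered 98.4% of it. A second wide stretch of the same band, chr12:11936708-11968437, measured 31730 bp in DMSO and was met by 8 AI-10-49 regions, of which the widest measured 13994 bp. Its fragments per M reads were 6.98 in DMSO and at most 4.41 in AI-10-49.

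Other wide stretches held together to different degrees. At 1q32.1 the DMSO region chr1:206234593-206269064 of 34472 bp met 1 AI-10-49 region of 36574 bp, the widest of its list, which also took in a DMSO neighbour of 2151 bp. The summit had 7.85 fragments per M reads (6.95 to 8.82) with DMSO and 5.41 (4.68 to 6.21) with AI-10-49. At 8q23.1 the DMSO region chr8:108313569-108345674 of 32106 bp met 6 AI-10-49 regions. The acetylated stretch of 8q11.23 gave 3 of the named regions: chr8:53036763-53067495 (30733 bp) met 2 AI-10-49 regions, while its neighbours chr8:53084245-53101899 and chr8:53028461-53034650 met 8 each. Within 1 locus, then, the widest part lay almost whole in 1 AI-10-49 region of 28275 bp and its neighbours lay in many. The part of height in this was not tested. The widest part had 7.99 fragments per M reads in DMSO (7.08 to 8.97). The neighbour chr8:53084245-53101899 had 7.03 (6.19 to 7.96), so these intervals overlapped, which does not show equal heights. In AI-10-49 the highest region meeting the widest part had 4.87 fragments per M reads (4.18 to 5.63). The highest meeting chr8:53084245-53101899 had 3.298. The other neighbour was lower in both conditions.

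Several wide AI-10-49 regions had close counterparts. In 6q23.3, the band of the stem and progenitor cell regulator MYB, the AI-10-49 region chr6:135499384-135523545 of 24162 bp met 4 DMSO regions, the main one of 24637 bp. Its fragments per M reads were 9.69 in DMSO and 7.38 in AI-10-49 (6.53 to 8.31). At Xp11.3 chrX:45607722-45633775 measured 26054 bp against 27483 bp in DMSO, with 3.43 and 5.21 fragments per M reads. In each of these 2 loci the width was nearly kept while the summit was lower in AI-10-49.

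The region with most partners was chr10:11239066-11249716 in 10p14, 10651 bp wide in DMSO, which met 9 AI-10-49 regions of 269 to 3941 bp. Its summit was low for its width, at 2.13 fragments per M reads (1.68 to 2.67), and the highest piece had 1.54. In 9q34.13 the DMSO region chr9:134144246-134154075 met 7 AI-10-49 regions, with 4.99 fragments per M reads in DMSO and at most 2.57 in AI-10-49. The strongest cases of merging were smaller in number of partners. At 17q11.2 the AI-10-49 region chr17:29633937-29649501 of 15565 bp met 7 DMSO regions. Its summit had 3.54 fragments per M reads (2.96 to 4.20) against 4.17 for the highest of them. At 5q23.2 chr5:126141922-126151514 also met 7 DMSO regions, and here the AI-10-49 summit was the higher, with 2.70 (2.20 to 3.29) against 1.79. Of these loci, 5q23.2 thus merged with a higher summit, and 17q11.2 with a summit whose interval took in the height of the highest DMSO region.

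Pairs of 1 DMSO and 1 AI-10-49 region that overlapped nothing else gave a direct comparison of width and height. The 29671 such pairs held 44.2% of the DMSO and 44.7% of the AI-10-49 regions. The AI-10-49 width was a median 0.948 of the DMSO width (quartiles 0.734 and 1.14). It was narrower by more than 1.5-fold in 5868 pairs (19.8%) and wider by more than 1.5-fold in 3379 pairs (11.4%). The AI-10-49 edges lay further inward by about the same length on both sides, a median of 23 bp on the left and 24 bp on the right. In 36.2% of pairs the AI-10-49 region lay inside the DMSO region, in 20.0% the DMSO region lay inside the AI-10-49 region, and in 43.8% the intervals were staggered.

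Heights differed more than widths. The AI-10-49 summit had a median of 0.809 times the fragments per M reads of its DMSO partner (quartiles 0.626 and 1.06). They were lower by more than 1.5-fold in 9063 pairs (30.5%) and higher by more than 1.5-fold in 1698 pairs (5.72%). Among the 14301 pairs with a −log10 q of at least 10 in both lists, the median height ratio was 0.718 and the median width ratio 0.960. The AI-10-49 fragments were also 1.09 times as long, which lets each cover a summit more often, so dividing by that ratio lowers these values further. A lower yield of the precipitation and less acetylation per site cannot be told apart in such ratios.

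Wide 1:1 pairs kept their width and had lower summits. Broken-up and merged regions are not among them, and 61.7% of the 1084 DMSO regions of 5000 bp or more were broken up. The covered length of that whole class had a ratio of 0.811, so the width ratios below hold only for regions that stayed 1 to 1. With the class set by the geometric mean of both widths, pairs of 5000 bp or more had a median width ratio of 0.998 (quartiles 0.965 and 1.03) and a median height ratio of 0.704 (0.608 and 0.795). Pairs of 2000 to 5000 bp had 0.991 and 0.713, and pairs of 1000 to 2000 bp had 0.948 and 0.704. Of the 279 pairs of 5000 bp or more, 95.3% had fewer fragments per M reads in AI-10-49. Their fold enrichment over background, the authors' own value, had a median ratio of 0.901, nearer to 1 than the height ratio. The background is not given for these pairs alone. Without a split by width, its mean per chromosome had a median over chromosomes of 3.66 fragments in AI-10-49 against 5.18 in DMSO. Background is counted at the depth of the input, which itself had a ratio of 0.812, so part of that difference is depth.

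For narrow pairs the direction depended on which width set the class. Pairs under 250 bp in DMSO were 1.58 times as wide in AI-10-49 and had 1.19 times the fragments. Pairs under 250 bp in AI-10-49 had a width ratio of 0.616 and a height ratio of 0.844. With the geometric mean the ratios were 1.09 and 1.08 under 250 bp, and 0.928 and 0.965 at 250 to 500 bp. No direction can be given for regions under 500 bp, whereas from 1000 bp up the height ratio lay between 0.685 and 0.733 under all 3 ways of setting the class.

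**Figure D3:**
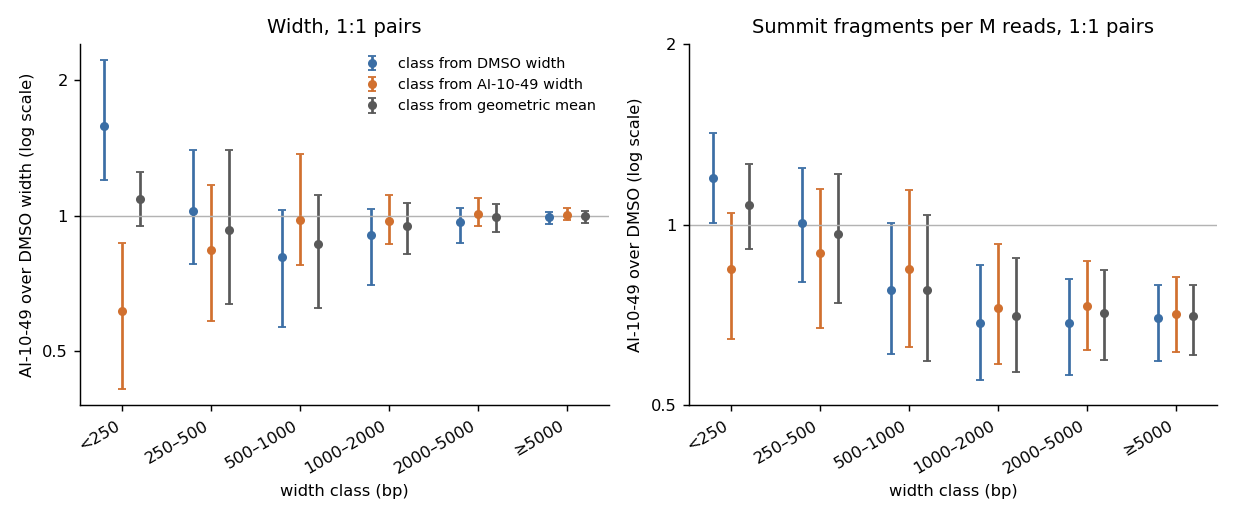
Ratios of AI-10-49 over DMSO in 1:1 pairs by width class in bp (log scale), left for region width and right for summit fragments per M reads; points are medians, bars run between the quartiles, and colours give the width that set the class. Narrow classes switch side with the class width, while pairs of 5000 bp or more sit at width ratios of 0.995 to 1.00 and height ratios of 0.698 to 0.710.

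The pairs whose width differed most were named by rank among those with a −log10 q of at least 10 in both lists. Such pairs were chosen for their difference in width, which is given as a description. In 4p11 the region chr4:48204176-48208747 measured 4572 bp in DMSO and 1129 bp in AI-10-49, with 1.71 and 0.973 fragments per M reads. In 19p12 chr19:21767150-21771275 measured 4126 and 1088 bp, with 5.35 (4.62 to 6.17) and 1.49 (1.12 to 1.94). The pairs of 9q34.11 (chr9:132232549-132236021, 3473 and 821 bp), 2q24.2 (chr2:159984686-159988498, 3813 and 1321 bp) and 6q25.3 (chr6:160240304-160243681, 3378 and 899 bp) had height ratios of 0.296, 0.345 and 0.317. In all 5 the summits of the conditions lay 38 to 88 bp apart, so the AI-10-49 region was the core around the DMSO summit.

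In the opposite direction, chr22:35772554-35774213 in 22q12.3 measured 1660 bp in DMSO and 4003 bp in AI-10-49. With DMSO its summit had 1.91 fragments per M reads (1.48 to 2.42), with AI-10-49 3.89 (3.28 to 4.58). In 4q24 chr4:103445941-103446462 measured 522 and 2355 bp, with 1.12 (0.801 to 1.53) and 1.95 (1.52 to 2.45). At 11q24.1 the region chr11:122930902-122935185 measured 4284 bp in DMSO and 6570 bp in AI-10-49 at heights of 10.5 and 10.8, among the tallest of both lists. The added length lay on its left side, where the AI-10-49 region began at 122928495. The remaining pairs, in 6q24.2 (chr6:144126531-144129637) and 2p23.2 (chr2:28938496-28941122), measured 3107 and 5130 bp and 2627 and 4567 bp, with height ratios of 1.79 and 1.17. Height ratios ran from 1.03 to 2.04 in the widened pairs and from 0.278 to 0.569 in the narrowed pairs. Counting intervals of the DMSO and AI-10-49 summits overlapped in 4 of the 5 widened pairs, 22q12.3 being the exception, and among the narrowed pairs in 4p11 alone. An overlap of such intervals does not show equal heights, and in 4q24 and 6q24.2 they overlapped only at their ends. At 11q24.1 the intervals were 9.44 to 11.6 and 9.81 to 11.96, and dividing by the ratio of fragment lengths (1.09) puts that height ratio below 1.

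Summits of the conditions lay close together in most pairs. The distance between the summits of a 1:1 pair had a median of 61 bp (quartiles 24 and 144), less than the fragment length of either library. It was 50 bp or less in 44.5% of pairs, over 250 bp in 14.3% and over 1000 bp in 166 pairs (0.559%). The DMSO summit lay inside the AI-10-49 region in 91.7% of pairs. The widths of overlapping regions bound the distance, so long distances are possible only where both regions together span as much. Over 1000 bp was seen in 0.277% of pairs whose DMSO region measured 1000 to 2000 bp, in 2.78% at 2000 to 5000 bp and in 12.4% (35 of 282) at 5000 bp or more. Relative to the width the distance was smaller in wide regions, a median of 0.00933 of the DMSO width at 5000 bp or more against 0.106 at 500 to 1000 bp.

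**Figure D4:**
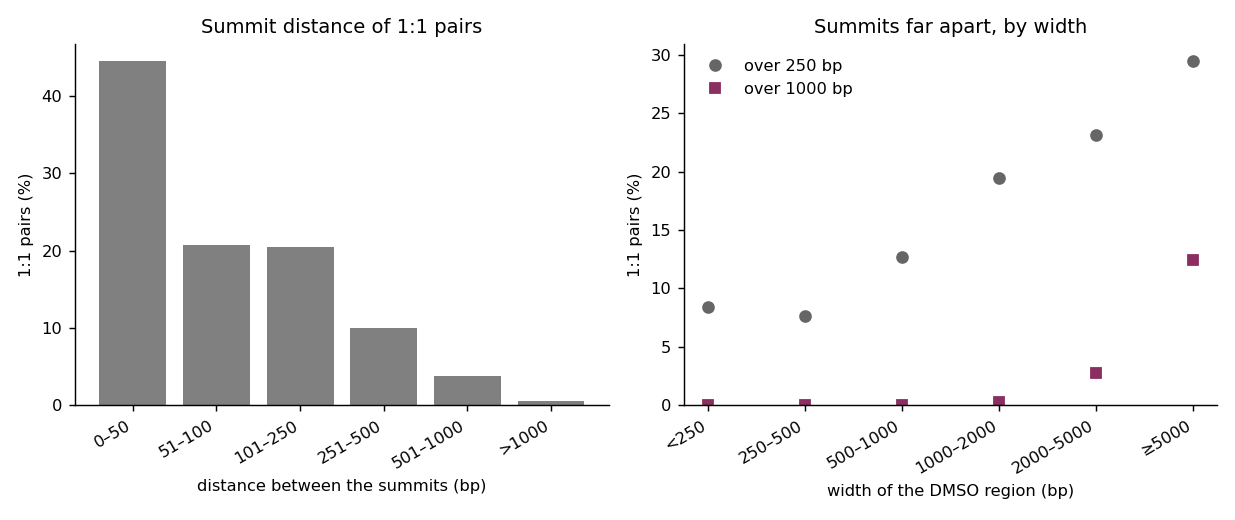
Left, the percentage of 1:1 pairs by distance between the summits in bp; right, the percentage of pairs with summits over 250 bp or over 1000 bp apart, by width of the DMSO region in bp. Distances of 50 bp or less make up 44.5% of pairs, and the share over 1000 bp, which is bounded by the span of both regions together, is 12.4% at 5000 bp or more.

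The longest summit distances lay in regions whose outlines were nearly the same. In 11q12.2 the region chr11:61593608-61604459 measured 10852 bp in DMSO and 11340 bp in AI-10-49, and its summit was at 61595145 in DMSO and at 61602672 in AI-10-49, 7527 bp apart. The summit heights were 8.01 and 6.14 fragments per M reads. In 19q13.12 chr19:36389102-36401455 (12354 and 13119 bp) had summits 7048 bp apart. Pairs in 5q23.1 (chr5:118603269-118612682), 5q13.3 (chr5:76144738-76154251) and 14q32.33 (chr14:105487724-105494211) had distances of 6475, 5017 and 4946 bp. Their width ratios lay between 0.981 and 1.06. In all 5 the DMSO summit lay left of the middle of the region, by coordinate, and the AI-10-49 summit right of it. The lists give 1 summit a region, so the height of the second summit is not known.

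Unpaired regions were mostly narrow and low, and many lay close to regions of the other list. Of the unpaired regions 84.1% in DMSO and 88.1% in AI-10-49 were under 500 bp, with median widths of 288 and 287 bp. Their summits held a median of 19 fragments in DMSO and 20 in AI-10-49, against 41 and 34 for paired regions. Per M reads the unpaired summits had medians of 0.532 and 0.541. The nearest region of the other list was within 1 kb for 43.3% of the unpaired DMSO regions and 52.4% of the unpaired AI-10-49 regions. Median distances were 1.56 and 0.88 kb, with upper quartiles of 10.4 and 3.88 kb. A −log10 q of at least 10 was held by 14.3% (13.8 to 14.8) of unpaired DMSO regions and 3.22% (2.93 to 3.52) of unpaired AI-10-49 regions, and by 65.9% and 53.3% of the paired ones. The share was thus higher in DMSO in both sets. A −log10 q depends on depth, which was lower for the AI-10-49 list.

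A few unpaired regions were wide. The widest in DMSO was chr5:126921589-126925272 in 5q23.2, 3684 bp with 63 summit fragments or 1.77 per M reads (1.36 to 2.26), and the nearest AI-10-49 region was 2.26 kb away. In 3q21.3, where GATA2 lies, which encodes a zinc finger factor of early blood cells, chr3:128273633-128276250 measured 2618 bp with 101 summit fragments and stood 27.1 kb from the nearest AI-10-49 region. Others of the 5 widest lay in 14q32.33 (chr14:107176927-107179703), 15q21.1 (chr15:45472528-45475287) and 5q35.3 (chr5:180074827-180077412). In AI-10-49 the widest was chr11:72739194-72741679 in 11q13.4, 2486 bp with 55 summit fragments and 16.7 kb from a DMSO region. Farthest from the other list among its 5 was chr4:129491109-129493045 in 4q28.2, which measured 1937 bp and lay 51.4 kb from a DMSO region. Regions in 2p23.2 (chr2:28118684-28121142), 20p12.2 (chr20:10840721-10842620) and 3p24.3 (chr3:23789374-23791234) completed the 5 and had 34, 36 and 41 summit fragments. The DMSO-only summits were thus 52 to 101 fragments high and the AI-10-49-only ones 34 to 55.

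Unpaired regions tended to lie next to each other. After an unpaired DMSO region the next one on the chromosome was unpaired in 38.7% of cases (38.0 to 39.3), and after a paired one in 25.1% (24.7 to 25.5). In AI-10-49 these shares were 33.5% and 17.6%. Neighbouring regions share copy number, mappability and local background, and no other arrangement was computed. These shares are not given at equal width, and 84.1% of unpaired DMSO and 88.1% of unpaired AI-10-49 regions were under 500 bp. The part of width was not tested. The longest run held 21 DMSO regions over 516 kb in 1p31.1 (chr1:76558218-77074311), which together covered 12.9 kb. In AI-10-49 it held 15 regions over 143 kb in 1p34.3 (chr1:39717793-39860422), covering 5.56 kb.

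Covered length was lower in AI-10-49 on every one of the 23 chromosomes with at least 500 regions in each list, Y being left out by that rule. The ratio of covered length ran from 0.767 on chromosome 9 to 0.988 on chromosome 20, with a median of 0.907. Broken-up regions outnumbered merged ones on all 23. The unpaired share was higher in DMSO than in AI-10-49 on 22 of them, chromosome 20 being the exception with 23.6% in DMSO and 25.4% in AI-10-49.

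Chromosomes 9 and X had the highest DMSO and the lowest AI-10-49 unpaired shares. On chromosome 9, the unpaired share was 35.2% (33.2 to 37.3) in DMSO and 12.8% in AI-10-49. For X the shares were 32.6% and 15.1%, and chromosome 4 had the third highest DMSO share with 32.25%. The lowest DMSO shares were those of chromosomes 19 (20.4%), 20 and 11 (26.1%). Chromosome 19 also had the third lowest AI-10-49 share (17.9%), after 9 and X, so it was low in both lists. The highest AI-10-49 shares after chromosome 20 were 24% on both chromosome 3 and chromosome 5. On chromosome 9 the arms differed, with a ratio of covered length of 0.738 on 9q and 0.853 on 9p. Of 41 arms with at least 200 regions in each list, 39 had a ratio under 1, and 12q (1.01) and 20q (1.02) did not.

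**Figure D5:**
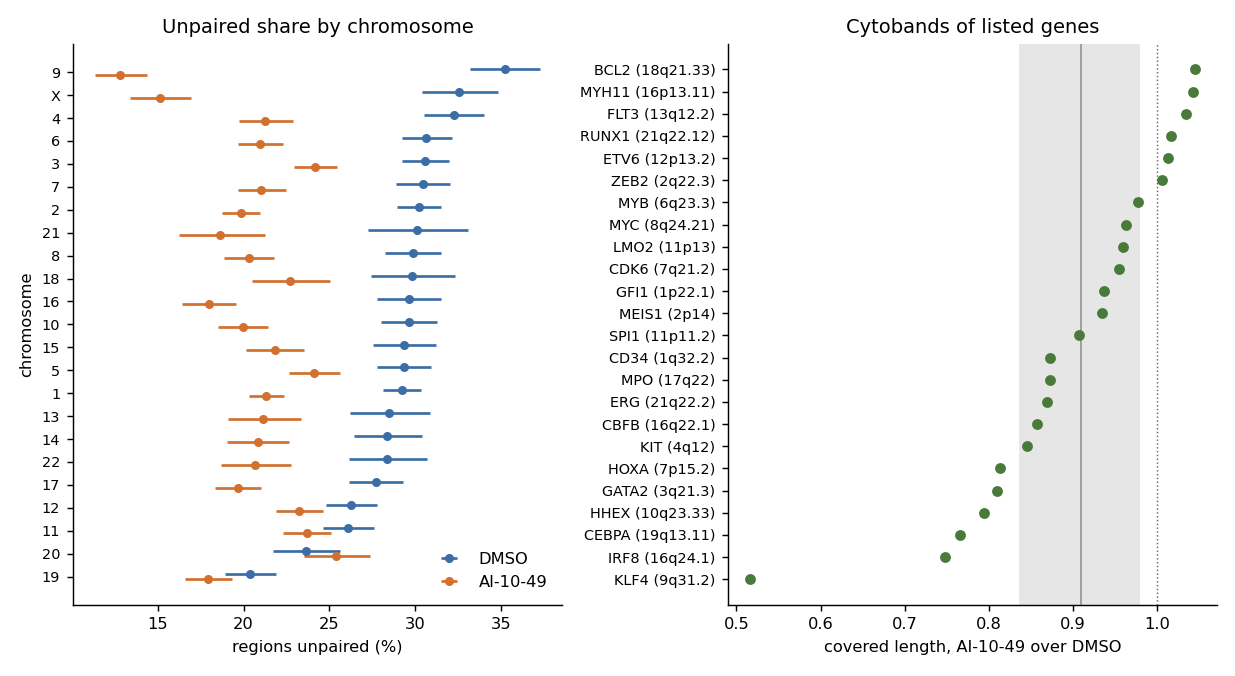
Left, the percentage of regions that overlap none of the other list on each of the 23 chromosomes with at least 500 regions in each list, with 95% Clopper-Pearson intervals; right, the ratio of covered length (AI-10-49 over DMSO) in the cytobands of 24 listed genes, where the grey band and line are the quartiles and median of 462 cytobands and the dotted line marks 1. Of these, chromosome 9 has the widest split (35.2% in DMSO, 12.8% in AI-10-49), and the listed bands run from 0.517 (KLF4) to 1.05 (BCL2).

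The local background moved with these values. The background expected over a DMSO summit averaged 3.96 fragments on chromosome 9 and 3.28 on X, against 7.55 on chromosome 20 and a median of 5.18 over chromosomes. On 9q it was 3.51 and on 9p 5.34. Across the 23 chromosomes, all read from the same libraries, background in DMSO and the unpaired DMSO share had a Pearson r of -0.67 (Spearman rho -0.58), and background and the ratio of covered length had an r of 0.57 (rho 0.34). The background of the 1:1 pairs in AI-10-49 relative to DMSO and their median height ratio had an r of 0.88 (rho 0.74). Chromosomes 16, 17, 19, 21 and 22 had height ratios of 0.713 to 0.733 and background ratios of 0.601 to 0.626, while chromosome 12 had 0.908 and 0.761. Height ratios are per M reads and background ratios carry the 0.812 ratio of input depth, so only their order over chromosomes can be compared, not their size. Chromosome 9 had a height ratio of 0.718 with a background ratio of 0.656, and X had 0.783 with 0.722, both lower in height than chromosomes of like background ratio (3, with 0.827 and 0.663, and 4, with 0.860 and 0.722). The part of the background in the chromosome differences was not tested.

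At the scale of cytobands the ratio of covered length was under 1 in 376 of 462 bands with at least 50 regions in each list (81.4%), with a median of 0.909 and quartiles of 0.837 and 0.979. The lowest ratios were 0.642 in 14q32.33 (156 DMSO and 107 AI-10-49 regions), 0.653 in 16q23.1, 0.661 in 11q23.2, 0.671 in 9q21.2 and 0.676 in 10q11.22. In 11q23.2 54.9% of the 82 DMSO regions were unpaired. The highest ratios were 1.3 in 3q26.31, where covered length was 85.6 kb in DMSO and 112 kb in AI-10-49, 1.28 in 20q13.13, 1.21 in 12q13.3, 1.21 in 2p23.2 and 1.20 in 17q23.1. In 3q26.31 44.3% (35.3 to 53.5) of the AI-10-49 regions were unpaired and the median width ratio of its 1:1 pairs was 1.12. Single bands thus had more coverage in AI-10-49 while the whole had less.

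The bands of 24 genes of blood cells and inv(16) leukemia were read against that distribution. Of these 18 had a ratio under 1, beside 376 of the 462 bands, with a median of 0.921 against 0.909. More broken-up than merged regions were found in 20 of the 24, beside 397 of the 462. Neither count stood above the share over all bands. The bands of KLF4, HHEX and FLT3 had too few regions for the rule on 50 regions and are not part of the 462. The band of KLF4, a factor of monocyte differentiation, had a ratio of 0.517 on only 22 DMSO and 13 AI-10-49 regions. The bands of IRF8, a regulator of monocytes, and CEBPA, a regulator of granulocyte differentiation, had 0.748 and 0.765. HHEX, a homeobox gene of early blood cells, had 0.794 on 39 and 34 regions, GATA2 0.810 and the HOXA cluster 0.813. In the CEBPA band the unpaired share was 31.7% of 82 DMSO regions and 10.4% of 77 AI-10-49 regions, 12 regions were broken up and 3 merged, and the 40 pairs had a height ratio of 0.649.

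Bands of other listed genes sat near or above 1. BCL2, an inhibitor of apoptosis, had 1.05, MYH11, the fusion partner of CBFB, 1.04, and FLT3, a receptor of progenitor cells, 1.03 on 41 and 46 regions. RUNX1 had 1.02 with 156 DMSO and 160 AI-10-49 regions, and merged regions (35) outnumbered broken-up ones (31). ETV6 had 1.01, with its 78 pairs at a height ratio of 1.00. ZEB2, a repressor that acts in blood cell differentiation, had 1.01, and its 54 pairs were higher in AI-10-49 by a median of 1.11. Between these ends lay MYB (0.977), MYC (0.963), LMO2 (0.960), CDK6 (0.955), GFI1 (0.936), MEIS1 (0.935), SPI1 (0.907), CD34 (0.873), MPO (0.872), ERG (0.869), CBFB (0.858) and KIT (0.845). CBFB and MYH11, the partners of the inversion on chromosome 16, were thus in bands on opposite sides of 1, and both bands hold many other genes.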

How the data were processed

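The series measured H3K27ac and RUNX1 occupancy by ChIP-seq in ME-1 cells. The H3K27ac lists (1 DMSO and 1 AI-10-49 library, grouped by title) were analysed, and the RUNX1 lists served only to count all listed regions. MACS2 2.1.0, Bowtie2 2.1.0, Picard 1.96, SAMtools 1.3, CASAVA 1.4 and hg19 are named by the submitters' processing notes. What each tool did and which input stood behind each call are not given in the sources used here. A deposited list holds the interval, the summit, a ratio (fold enrichment at the summit over local background) and −log10 p and −log10 q values as the authors' caller wrote them. The deposited score was not used.

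Summit fragments and local background were solved from the deposited fold and −log10 p, with the scaling factor at which fragment numbers came out whole (100% of regions of both lists solved within 0.003 of −log10 p; at other factors the median was 2.33% for DMSO and 2.00% for AI-10-49). Read totals assume a genome size of 2700000000 bp and the shortest region as fragment length. In simulated data 100% of 2980 (DMSO) and 99.7% of 2994 (AI-10-49) fragment numbers were exact. Fragments per M (mega) reads are fragments over the recovered ChIP reads. The background is in fragments at the depth of the input, so part of its ratio between conditions comes from the 0.812 ratio of depth.

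Regions were paired by 1 bp of overlap or more. Pair counts differed by 0 from bedtools 2.31.1, and in 67087 simulated regions 100% of 36706 changes (dropped, split or narrowed) were found. Python 3.11.15, numpy 2.4.6, pandas 2.3.3, scipy 1.17.1 and matplotlib 3.10.9 were used. Cytobands are those of circlize 0.4.16, and a region belongs to the band of its summit. Shares carry Clopper-Pearson intervals and fragment numbers Poisson intervals (95%), which cover counting only. No test between conditions was made with 1 library each.

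Named regions were the 5 widest of each list, the 5 with most partners, the 5 widest unpaired (−log10 q of at least 10), the 5 1:1 pairs narrowed most, widened most and with the largest summit distance (−log10 q of at least 10 in both), the 3 chromosomes with the highest and lowest unpaired shares and the 5 bands with the highest and lowest ratios of covered length. The members, these rules and the 24 listed bands were chosen with earlier results of these data known. Alternatives varied the overlap, threshold, joining, narrow regions, fragment length and unit. The gene and sequence tables at hand are of GRCh38.p14, so gene assignment and sequences were not analysed here.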

Additional observations from a re-analysis of the deposited data

How the results depend on the processing

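No paired analysis was possible because a single library stood for each condition and no test was made, and no alternative bears on the spread between replicates. At the recovered depth the summits of unpaired regions held medians of 19 and 20 fragments, which bounds the precision of their heights. Of 148 alternative values 40 moved by less than their counting interval or 1.5-fold, 101 moved further and 7 changed side. The cause was not tested for any of them. The covered length ratio (0.908) ran from 0.825 to 0.919 over the 5 alternatives run for it. Alternatives that set the class from the AI-10-49 or the geometric mean width, or kept only regions with at least 1 summit fragment per M reads, were added after seeing the data. With regions under 500 bp left out, no value exists for that class.

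With overlap of at least 50% of the shorter interval, paired shares were 67.7% of DMSO and 75.6% of AI-10-49 regions (71.0% and 79.0% as reported), 41.7% for DMSO regions under 500 bp (47.6%), merged regions numbered 3367 (5191), and the unpaired DMSO share ran from 22.5% to 38.2% over chromosomes (20.4% to 35.2%). With regions within 1 kb paired, the paired shares were 83.5% and 90.0%, 71.3% under 500 bp, broken-up and merged regions 31062 and 30278 (8834 and 5191), their ratio 1.03 in place of 1.70, the width ratio 0.923 (0.948), the summit distance 63 bp (61 bp) and the chromosome range 10.2% to 21.1%.

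At a −log10 q of at least 5 in both lists, 84.6% of AI-10-49 regions were paired, 39.8% of DMSO regions under 500 bp and 99.1% of those of 2000 bp or more (99.8%). Broken-up and merged regions numbered 5719 and 3063, the width ratio was 0.938, the summit distance 54 bp and the height ratio under 500 bp 1.04 (1.05). At 10 or more these values were 91.8%, 30.2%, 96.7%, 2767, 1181, 0.940, 46 bp and 0.965, the last on the other side of 1, with a height ratio of 0.677 from 2000 bp up (0.687).

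With regions of a list within 500 bp joined, the paired shares were 75.5% and 81.7%, with 38.2% under 500 bp and 99.4% from 2000 bp up. Broken-up and merged regions numbered 1819 and 1128, the summit distance was 67 bp, the chromosome range 15.3% to 29.8% and the height ratio under 500 bp 1.09. With regions under 500 bp left out the paired shares were 75.9% and 86.0%, and 98.6% from 2000 bp up. Broken-up and merged regions numbered 3514 and 1539, the summit distance was 56 bp, the chromosome range 17.7% to 32.21% and the height ratio from 2000 bp up 0.675.

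With at least 1 summit fragment per M reads, the paired shares were 75.4% and 92.8%, broken-up and merged regions numbered 2213 and 756 (ratio 2.93), and the lowest chromosome share was 18.3%, on chromosome 12 in place of 19. By covered length the chromosome range was 6.40% to 13.7%. Subtracting the difference in fragment length gave a width ratio of 0.926. Divided by the ratio of fragment lengths, the height ratio was 0.628 from 2000 bp up and 0.962 under 500 bp, and as fold enrichment it was 0.820 from 2000 bp up. With the class from the AI-10-49 width, the height ratios were 0.730 and 0.885 and the width ratios 1.01 (0.972 as reported) and 0.788 (1.15). From the geometric mean they were 0.711 and 0.965, with a width ratio of 0.961 under 500 bp.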

Other observations

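The cytobands were also read by their Giemsa stain, which darkens with AT-rich, gene-poor chromatin. In the unstained bands 28.3% (27.9 to 28.7) of 40259 DMSO regions were unpaired, and in the darkest bands 33.2% (31.8 to 34.6) of 4429. For AI-10-49 regions the shares were 21.15% and 20.5%. The median height ratio of 1:1 pairs was 0.793 in unstained and 0.882 in the darkest bands. The background ratio of these pairs, not scaled for the depth of the input, was 0.669 and 0.743. Covered length had ratios of 0.909 and 0.881. The darkest bands thus had the higher height ratio and the lower coverage ratio of these 2 classes. The stains between them followed no single order, since bands of middle stain had the highest coverage ratio (0.926) with a height ratio of 0.858. The part of the background was not tested.

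Further runs of neighbouring unpaired regions were found in both lists. DMSO had 13 in a row over 134 kb in 11q14.1 (chr11:82640973-82774771) and 11 over 337 kb in 10p14 (chr10:8107221-8444353). AI-10-49 had 12 over 31.8 kb in 2q14.3 (chr2:129040896-129072652), 11 over 19.6 kb in 10q23.31 (chr10:89651327-89670954) and 11 over 13.6 kb in 11q14.1 (chr11:85360131-85373777). The AI-10-49 runs beyond the longest were the more compact ones.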
